A study of Daphnia magna with 15 samples.

Results

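The 300 loci described here are those that stretch over the longest genomic distance in a transcriptome of the water flea Daphnia magna. They were chosen by position: from the 18877 assembled loci, the 18098 whose level averaged 1 FPKM or more across the libraries were kept (FPKM are fragments scaled to transcript length and library size), then the 12673 that do not share their interval with another locus, and of these the 300 with the largest distance from start to end. Every one of the 300 therefore passed the filter on low values. The last members inside the limit, XLOC_018235 and XLOC_016926, span 8285 and 8283 bp, and the first loci outside, XLOC_014585 and XLOC_014200, span 8272 and 8270 bp. The choice used no drug difference.

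Whole neonates of a laboratory strain, 48 to 72 h old, were kept unfed for 24 h in 25 mL of medium, and poly(A) RNA of the animals was sequenced with a strand-marking kit. The 5 groups, with 3 libraries each, were etoposide at 300 ng/L, imatinib mesylate at 2000 ng/L, cisplatin at 10 ng/L, and the unexposed sets named control A and control B. A number of animals shared each vessel, and the labels do not say which unexposed set belongs to which drug. Nor do they say that the replicates came from separate vessels, so each p-value below weighs a difference against a library-to-library spread that may be technical. In RNA of whole animals, fewer cells of a type and less RNA per cell cannot be told apart.

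Transcription of a long gene takes RNA polymerase II over more DNA, which twists the template ahead of and behind the enzyme, and topoisomerases release that twist. Etoposide holds topoisomerase II on cut DNA, and in mouse neurons inhibitors of topoisomerase I are known to lower the RNA of long genes more than that of short ones. Cisplatin crosslinks DNA bases, and such lesions can stall the polymerase, while imatinib inhibits tyrosine kinases. The comparison below asks whether the longest loci differ with each drug from shorter loci of like abundance. The Daphnia genome is compact, and the longest loci assembled here are short beside the long genes of mammals. Scaffold length also bounds the span, but the lengths of the scaffolds are not given. The furthest locus end listed on the members' scaffolds had a median of 52109 bp. XLOC_009577, for example, runs from 79 to 12207, the furthest end listed on its scaffold. Longer loci of the genome may be missing or cut short, which was not tested.

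The members span 8283 to 21335 bp, with a median of 10187.5 bp, against a median of 1530 bp for the 12373 other loci with an interval of their own. They lie on 269 scaffolds. Of these scaffolds 240 hold 1 member, 28 hold 2 and 1 holds 4. Long loci carried more assembled transcripts: the median was 3 and the most was 47, 112 members (37.3%) had 5 or more and 40 (13.3%) had 1, whereas 68.4% of the other loci had 1. Their mean levels ran from 1.55 to 2480 FPKM with a median of 20 FPKM. For each member the 3 nearest other loci in mean FPKM were taken as matched shorter loci, 900 in all, with a median span of 1605 bp and the same median level of 20 FPKM. They were not matched on the number of transcripts, and 66.9% of them had 1, against 13.3% of the members. Span is that of the assembled interval and includes introns. A further 686 tested loci in intervals at least as long were left out, because an interval shared by several loci does not give the length of any 1 of them; their differences are given below beside those of the members.

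Read depth is not given in the table. Control A 1 listed 1014 of the 18098 tested loci at 0 and the other libraries 34 to 199; of the members, 2 were at 0 in control A 1 and 0 in every other library, so zeros hardly touch the long loci. Their spread was also smaller than that of shorter loci. On the log2(FPKM + 1) scale the 3 libraries of a group had a median SD of 0.293 for the members against 0.404 for the matched loci in control A, 0.227 against 0.311 with etoposide, 0.171 against 0.226 with imatinib, 0.11 against 0.146 in control B and 0.102 against 0.138 with cisplatin. A fold of a given size is thus more readily called in a long locus than in a matched one, and the counts below are to be read beside the medians.

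With etoposide, the longest loci were lower than the controls more often than loci at large. In 83 of the 300 members (27.7%) all 3 etoposide libraries lay below all 6 control libraries, against 10.7% of the matched loci and 8.97% of all loci tested, while 4 members (1.33%, against 3.71% of all) lay above. In the test on log2(FPKM + 1), fitted over all loci, 58 members fell and 1 rose against both control sets (limma, adjusted p under 0.05 in each), which is 19.3% and 0.333% of the members. The background is 6.75% of all loci in either direction, 5.54% lower and 1.2% higher. After median centring 40 members fell and 0 rose against both sets, 13.3% of the members beside 6.03% of all loci. The median difference of the 58 was -0.87 against control A and -1.03 against control B on the log2 scale, or 1.83-fold and 2.05-fold. Against each set alone, 66 members were lower and 15 higher than control A (background 7.82% and 7.63%), and 170 were lower and 10 higher than control B (background 21.4% and 7.28%), or 102 and 17 after median centring. Without control A 1, the 15 higher than control A became 34. In either direction the members' calls then went from 27% to 33%, beside 15.5% to 22.1% of all loci. After median centring 39.7% of the members passed against control B in either direction, beside 23.8% of all loci. Against control A 52 were then lower and 11 higher, 21% of the members beside 14.7% of all loci.

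The count against both sets rests on single libraries, over all loci as well as in the members. Over all loci the share called fell from 6.75% to 0.0166% without etoposide 3 and to 0.0332% without control A 2. It was 4.38%, 3.91% and 3.67% without control B 1, 2 and 3, beside 13%, 12.3% and 12.3% of the members. The 59 members became 0 without etoposide 3 or control A 2, 39, 37 and 37 without control B 1, 2 and 3, and 38, 39 and 39 without cisplatin 1, 2 and 3, whose libraries enter the shared spread; it was also 0 with library weights and when etoposide was fitted with the control sets alone (9 libraries). Against control A alone, 81 became 1 without etoposide 3 or control A 2 and 0 with etoposide and control A fitted alone, whereas against control B the 180 stayed between 135 and 201 with any library left out. The share of all loci called against control A went from 15.5% to 0.0387% without etoposide 3 and 0.0608% without control A 2. Against control B it was 28.7%, and between 16.9% and 34.4% with any library left out.

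**Figure D1:**
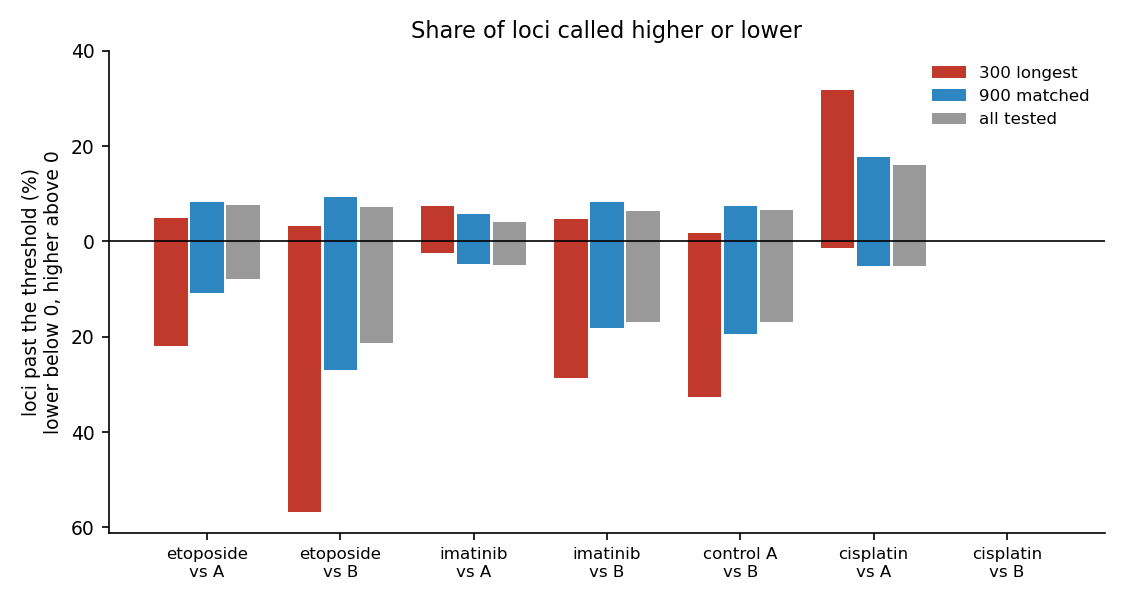
Share of loci past the threshold (limma, adjusted p under 0.05) in percent, for the 300 longest loci, 900 matched loci and all 18098 tested; bars above 0 are loci that were higher, bars below 0 loci that were lower in the first-named group. With etoposide against control B, 56.7% of the longest loci were lower, against 27% of the matched loci; with cisplatin against control B no locus passed.

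XLOC_001603 (scaffold00631, 31102 to 46324, span 15222 bp, 13 transcripts) fell the most among members that passed against both sets with no overlap. It measured 21.7, 29.6 and 10.5 FPKM with etoposide, 47.9, 206 and 99.9 FPKM in control A and 112, 114 and 137 FPKM in control B. Each etoposide library lay below every control library, although control A varied over more than 4-fold. The log2 difference was -2.33 against control A and -2.61 against control B (SE 0.493; limma, adjusted p = 0.0196 and 0.00305). Imatinib gave 95, 46.6 and 34.4 FPKM, which overlaps control A, and cisplatin 119, 127 and 143 FPKM. Without etoposide 3 or control A 2 the call against control A was lost, and with the locus's most abundant transcript in place of the sum both calls were lost.

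XLOC_012563 (scaffold02101, 103772 to 113148, span 9376 bp, 1 transcript) came next. Etoposide gave 4, 5.22 and 1.21 FPKM, control A 7.27, 27.8 and 18.5 FPKM and control B 8.86, 14.8 and 19.6 FPKM. Each etoposide library lay below every control library, but imatinib, at 13.6, 5.21 and 5.24 FPKM, reached the same levels in libraries 2 and 3. The log2 differences were -2.03 and -1.85 (SE 0.505; limma, adjusted p = 0.0258 and 0.0175), and they too lost the call against control A without etoposide 3 or control A 2. Against control B, leaving out etoposide 3 or either of control B 2 and 3 ended the call (limma, adjusted p from 0.0511 to 0.0784 over the alternatives that did so).

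XLOC_008509 (scaffold01585, 21091 to 31909, span 10818 bp, 9 transcripts) is the most abundant member. It measured 1090, 1370 and 555 FPKM with etoposide, 2040, 4830 and 3580 FPKM in control A and 2620, 2750 and 3290 FPKM in control B. All etoposide libraries were below all controls; the imatinib libraries, at 2470, 1690 and 1690 FPKM, overlapped control A and lay below control B. The log2 difference with etoposide was -1.80 against control A and -1.61 against control B (SE 0.359; limma, adjusted p = 0.0179 and 0.00653). XLOC_009090 (scaffold01649, 31535 to 40892, 15 transcripts), the second in abundance, had 1590 ± 22.8 FPKM with etoposide (SD, n = 3), 2460 ± 248 FPKM in control A and 1870 ± 58.5 FPKM in control B. Its difference passed against control A (log2 -0.62; limma, adjusted p = 0.0231) and not against control B (log2 -0.23; limma, adjusted p = 0.266).

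The 1 member that rose against both sets, XLOC_009511 (scaffold01708, 42 to 9711, span 9669 bp, 4 transcripts), did so with imatinib as well. It measured 108, 107 and 142 FPKM with etoposide, 105, 150 and 113 FPKM with imatinib, 99.7, 53.1 and 62.3 FPKM in control A, 79.3, 59.2 and 71.3 FPKM in control B and 69.2, 62 and 78.1 FPKM with cisplatin. Every etoposide and imatinib library was above every control library, by a narrow margin over control A 1. The log2 differences lay between 0.76 and 0.80 (limma, adjusted p = 0.0402 and 0.0248 with etoposide, 0.0448 and 0.0238 with imatinib). Against control A, the call was lost under 17 alternatives with each drug, most leave-one-out fits included.

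**Figure D2:**
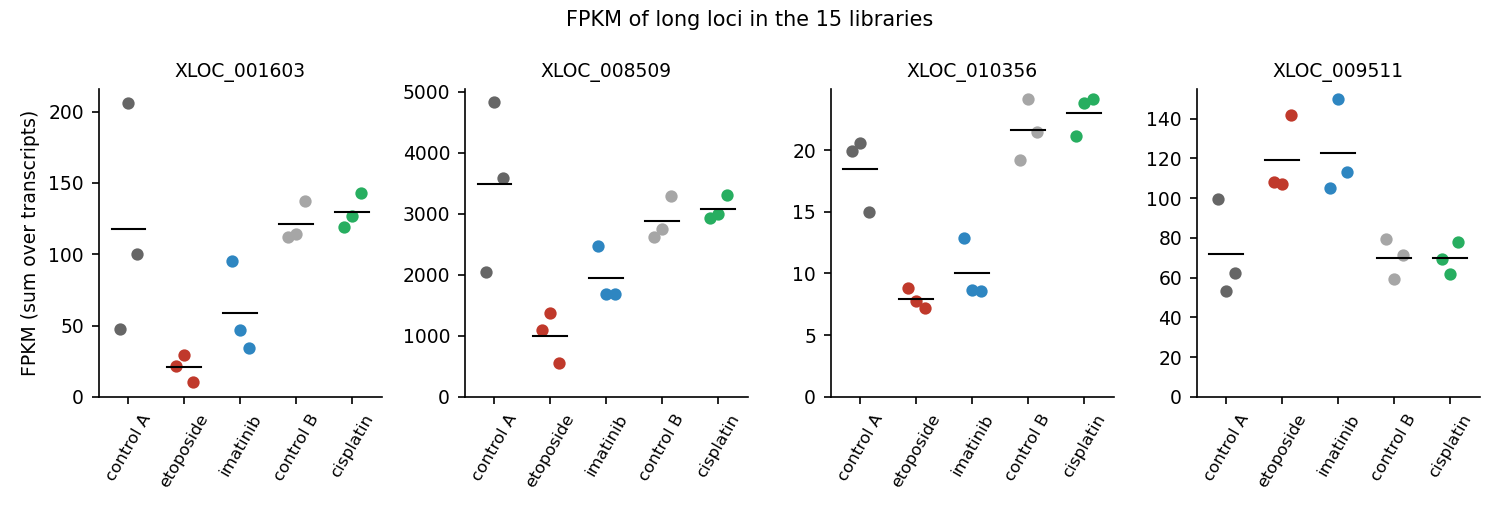
FPKM summed over the transcripts of 4 long loci, on a linear axis from 0, in each of the 15 libraries (points) with the group mean (line). The etoposide libraries of XLOC_001603, XLOC_008509 and XLOC_010356 lie below all control libraries, and those of XLOC_009511 above; cisplatin lies with control B.

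Of the 5 longest loci, 2 passed with etoposide, against control B alone, and 1 leaned the other way. XLOC_003070 (scaffold00914, 49186 to 70521), the longest at 21335 bp, had 10.1, 11.9 and 6.28 FPKM with etoposide, 11.1, 19.6 and 13.7 FPKM in control A and 14.8, 14.9 and 18.3 FPKM in control B, so that it overlapped control A and lay below control B (log2 -0.61 and -0.74; limma, adjusted p = 0.0773 and 0.0259). XLOC_010708 (scaffold01866, 53757 to 73067, 19310 bp) had 11.7 ± 2.13 FPKM with etoposide (SD, n = 3 here and below), 13.9 ± 2.22 FPKM in control A and 17.4 ± 2.64 FPKM in control B, and passed against control B alone (log2 -0.54; limma, adjusted p = 0.031). Neither XLOC_007801 (scaffold01494, 568 to 20872, 20304 bp), at 12.4 ± 2.23, 18.6 ± 5.71 and 17.6 ± 2.78 FPKM in the same order, nor XLOC_003435 (scaffold00953, 11265 to 31302, 20037 bp), at 37.8 ± 3.87, 48.8 ± 21.1 and 49.4 ± 2.6 FPKM, passed against a control set. XLOC_001976 (scaffold00771, 1693 to 22808, 21115 bp) measured 116 ± 32.1 FPKM with etoposide, 110 ± 33 FPKM in control A and 83.6 ± 4.4 FPKM in control B; its differences of 0.08 and 0.42 were upward and did not pass. At the limit of the choice, given without a test, XLOC_018235 and XLOC_016926 inside had 1.39 ± 0.934 and 2.07 ± 0.326 FPKM with etoposide, 2.94 ± 0.717 and 3.94 ± 0.583 FPKM in control A and 5.3 ± 0.244 and 4.1 ± 0.369 FPKM in control B. Just outside, XLOC_014585 had 1.87 ± 0.329, 3.39 ± 0.678 and 4.89 ± 0.773 FPKM in the same order of groups, and XLOC_014200 had 26.7 ± 2.81, 29.7 ± 1.01 and 33.4 ± 1.31 FPKM.

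The 58 members that fell were spread through the set. They lie on 57 scaffolds, span 8283 to 17762 bp with a median of 10397 bp (10124 bp in the other 242 members), and have mean levels of 2.76 to 2480 FPKM. Of the 58, 22 came from the 100 longest members, 17 from the next 100 and 19 from the last 100. On the scaffold with 4 members, scaffold01993, all were lower with etoposide than in control B (log2 -0.77 to -0.69; limma, adjusted p from 0.00682 to 0.015) and 2 of them also passed against control A. In the same 58, the median difference with imatinib was -0.34 against control A and -0.59 against control B, which are given side by side only, since these comparisons share their control libraries with the ones that chose the 58.

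Etoposide was set directly against imatinib, a comparison with no control library in its means. Its limma values still rest on the spread shared by all 15 libraries, the controls included. Of the members, 250 (83.3%) had a lower mean with etoposide, against 51.8% of the matched loci and 47.4% of all tested, and the median log2 difference was -0.23, against -0.01 in the matched loci and 0.02 over all. In 77 members (25.7%) every etoposide library lay below every imatinib library and in 5 above, where the background is 7.96% and 10%, or 18% in either direction. No member passed on its own (limma, smallest adjusted p = 0.177 among members), nor did any other locus; 71 members were lower and 4 higher at an unadjusted p under 0.05, against 6.63% and 6.02% of all loci. In 219 members (73%, against 64.8% of all loci) the difference had a 95% interval inside 2-fold either way. The drugs were given at different concentrations.

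**Figure D3:**
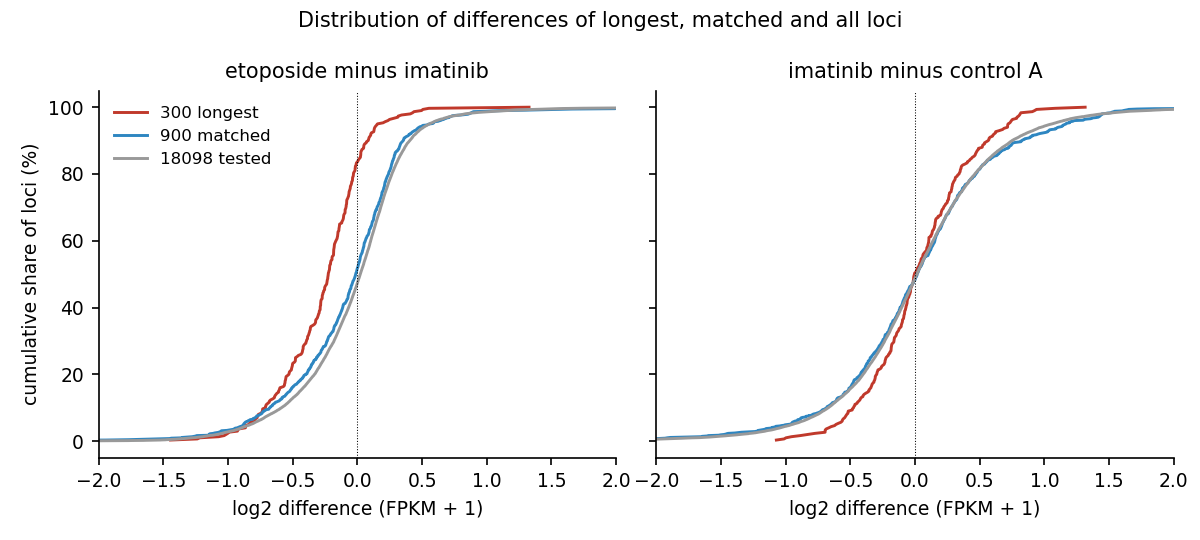
Cumulative share of loci (percent) by log2 difference, for etoposide minus imatinib (left) and imatinib minus control A (right), in the 300 longest loci, the 900 matched loci and all loci tested; the axis is limited to 4-fold either way. On the left 83.3% of the longest loci lie below 0, against 51.8% of the matched loci; on the right the shares are 50.3% and 48.2%.

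To follow the long loci library by library, each locus was centred on its mean over the 15 libraries, and the median of the 900 matched loci was subtracted from the median of the 300 members, which removes any offset that all loci of a library share. This shift was -0.222, -0.189 and -0.255 in the etoposide libraries on the log2 scale. It was 0.013, -0.029 and -0.04 with imatinib, 0.082, 0.108 and 0.167 in control B, and 0.047, 0.074 and 0.174 with cisplatin. In control A it was 0.025 and 0.051 in libraries 1 and 2 and -0.206 in library 3. The etoposide libraries were below all imatinib, control B and cisplatin libraries, but control A 3, which is unexposed, lay among them, so that etoposide and control A overlap. No test was made of this shift, since the members were chosen with earlier results known.

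The group means of the shift were -0.222 ± 0.033 with etoposide, -0.019 ± 0.028 with imatinib, -0.043 ± 0.142 in control A, 0.119 ± 0.044 in control B and 0.098 ± 0.067 with cisplatin (SD, n = 3). Etoposide was 0.203 lower than imatinib, 0.179 lower than control A and 0.341 lower than control B. With loci matched on the number of transcripts too, the differences were -0.204, -0.158 and -0.328 in the same order. Leaving out control A 3 made the difference from control A -0.267, and leaving out control A 2 made it -0.128. The unexposed sets themselves differed by -0.162, control A being the lower, and by -0.075 without control A 3.

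**Figure D4:**
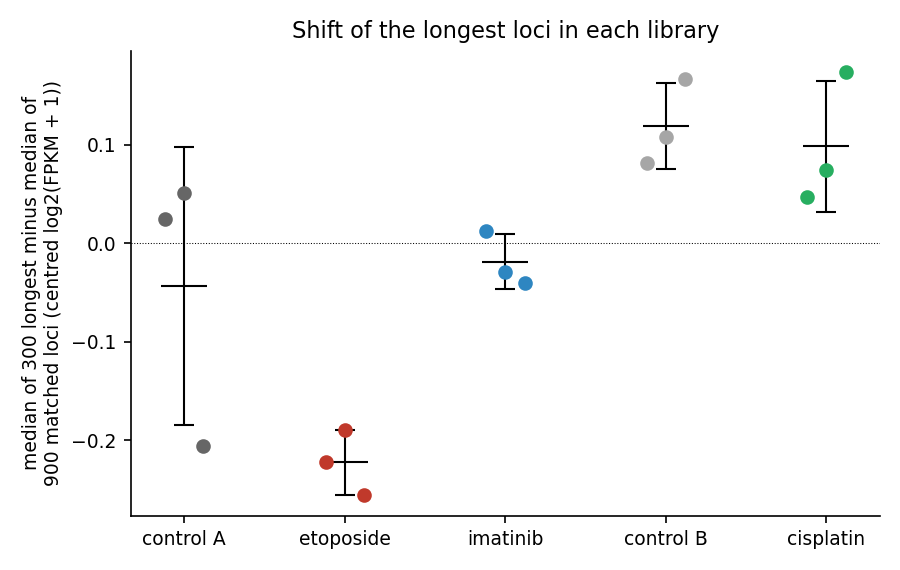
Median of the 300 longest loci minus median of the 900 matched loci in each library (points), on the scale of log2(FPKM + 1) centred on each locus's mean, with group mean and SD (n = 3). Etoposide lies from -0.255 to -0.189, and control A 3 at -0.206 lies among these libraries.

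Across classes of span the difference grew gradually, with no step at the limit of the choice. With etoposide against control B the median log2 difference was -0.12 in the 1032 loci under 500 bp, -0.13 from 500 bp, -0.19 from 1000 bp, -0.30 from 2000 bp, -0.48 in the 1469 loci from 4000 bp up to the members, and -0.58 in the members. Against control A it went from 0.17 under 500 bp to -0.19 from 4000 bp and -0.20 in the members. Of loci that were lower against both sets, the share rose from 2.13% under 500 bp to 13.6% from 4000 bp and 19.3% in the members. In etoposide minus imatinib the median was 0.02 in the shortest class, -0.02 from 2000 bp, -0.14 from 4000 bp and -0.23 in the members. Imatinib against control B went from -0.124 under 500 bp to -0.335 from 4000 bp and -0.347 in the members. Imatinib against control A went from 0.22 under 500 bp to -0.056 from 4000 bp and -0.003 in the members. Cisplatin against control A was 0.393 under 500 bp, 0.235 from 1000 bp, 0.285 from 4000 bp and 0.378 in the members. Control A against control B also widened with span from 1000 bp on, from -0.22 to -0.41 in the members, although it was -0.35 under 500 bp. Across the 12673 loci Spearman's rho between span and difference was -0.154 against control A, -0.159 against control B and -0.142 against imatinib, weak values over loci that share libraries. With imatinib it was -0.0839 and -0.0997 against control A and control B, with cisplatin -0.021 and -0.0747, and between the control sets 0.000126. Within the 300 members it was 0.0406, 0.0337 and 0.014 for the etoposide comparisons, so no trend with span was seen among them.

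The 686 loci left out for sharing an interval at least as long as the shortest member did not show the members' differences. Their intervals had a median of 10247 bp, and their median log2 difference with etoposide was 0.05 against control A, -0.21 against control B and -0.02 against imatinib. These medians lay close to those over all loci tested, 0.02, -0.18 and 0.02, and away from the -0.20, -0.58 and -0.23 of the members. The own length of each of these loci is not given, and the difference between the sets was not tested.

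**Figure D5:**
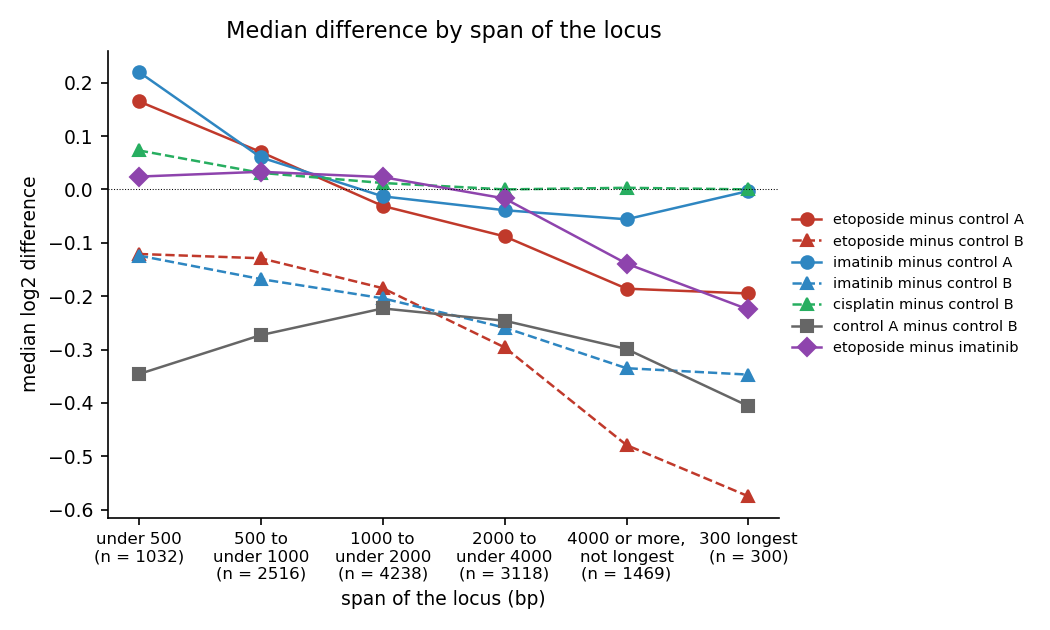
Median log2 difference in 6 classes of span (bp, number of loci under each class), for etoposide and imatinib against the control sets, cisplatin against control B, control A against control B, and etoposide against imatinib. Etoposide against control B falls from -0.12 in the shortest class to -0.58 in the 300 longest, and cisplatin against control B ends at 0.00.

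The number of transcripts and the level were looked at within the members. The 40 members with 1 transcript had a median difference with etoposide of -0.27 against control A, -0.82 against control B and -0.24 against imatinib. The 260 with more had -0.18, -0.55 and -0.22. Among these, the 112 with 5 or more transcripts had smaller medians of -0.09, -0.44 and -0.20. In loci of 1 transcript from 4000 bp up to the members the corresponding medians were -0.28, -0.66 and -0.21. By level, the shift of etoposide from imatinib was -0.196 in the 79 members under 10 FPKM, -0.175 in the 116 from 10 to 30 FPKM and -0.21 in the 105 above. The most abundant transcript made up 55% to 61.7% of the locus in the median of the 260 members with more than 1, and the groups overlapped in this share.

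With imatinib the longest loci did not stand apart in this way against both sets or against control A alone. Compared with control B they were lower more often than matched loci, as given below. Against both sets, 4 members fell and 2 rose, 2% of the members beside a background of 3.19%, made up of 2.5% lower and 0.685% higher (limma, adjusted p under 0.05 in each). In 23 members (7.67%, against 8.54% of all loci) the imatinib libraries lay below all 6 controls and in 7 (2.33%, against 3.86%) above. Against control A alone 29 members passed (9.67%, background 9.03%), of which 7 were lower and 22 higher, with a background of 4.9% and 4.14%. The median difference of the members from control A was -0.003, and 234 of them (78%) had a 95% interval within 2-fold, against 56% of all loci. Against control B 86 were lower and 14 higher, 28.7% and 4.67% of the members. The background was 16.9% and 6.29%, and the matched loci had 18.1% and 8.33%. After median centring 28 were lower and 17 higher, which is 15% of the members against 15.8% of all loci. The members' shift from matched loci with imatinib was -0.138 against control B and 0.024 against control A.

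The 6 members that moved with imatinib against both sets went in both directions. XLOC_010356 (scaffold01829, 4525 to 17148, span 12623 bp, 2 transcripts) measured 12.9, 8.64 and 8.58 FPKM with imatinib, 19.9, 20.6 and 15 FPKM in control A and 19.2, 24.1 and 21.5 FPKM in control B (log2 -0.83 and -1.05, SE 0.171; limma, adjusted p = 0.0191 and 0.00164). With etoposide it was lower still, at 8.85, 7.74 and 7.18 FPKM, and all 6 drug libraries lay below all 6 controls. XLOC_016508 (scaffold02888, 9028 to 19321, span 10293 bp, 5 transcripts) had 7.54 ± 1.01 FPKM with imatinib, against 11.7 ± 1.85 FPKM in control A and 12.7 ± 0.966 FPKM in the other set (SD, n = 3; log2 -0.57 and -0.69; limma, adjusted p = 0.0332 and 0.00615), but its most abundant transcript alone gave 0.14 against control A. XLOC_009226 (scaffold01662, 106051 to 116513, span 10462 bp, 3 transcripts) measured 74, 82.2 and 87.3 FPKM with imatinib, above the 60.6, 49.2 and 47.8 FPKM of control A and the 45, 45.9 and 41.6 FPKM of control B (log2 0.62 and 0.86, SE 0.138; limma, adjusted p = 0.0228 and 0.00149). Without imatinib 2 or 3 or control A 2 the calls of XLOC_010356, XLOC_016508 and XLOC_009226 against control A were lost; XLOC_016508 also lost it without control A 3, control B 3 or any cisplatin library (limma, adjusted p from 0.0514 to 0.256).

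Of the 4 members that fell with imatinib against both sets, 3 also fell with etoposide, which is 75% of the imatinib list and 5.17% of the etoposide list; the comparisons share their controls. The overlap was taken in the members only, so whether it differs from that over all loci was not tested. The count of 6 rested on single libraries: it was 0 without imatinib 2, imatinib 3 or control A 2, 13 and 10 without control A 1 and 3, 10 without etoposide 3, 4 without etoposide 2, 4, 4 and 3 without control B 1, 2 and 3, and 3 without any 1 of the cisplatin libraries. The 29 calls against control A became 53, 5, 2 and 1 without control A 1, control A 2, imatinib 2 and imatinib 3, and 19 without control B 3, cisplatin 1 or cisplatin 2. The 100 against control B became 64 without imatinib 2 and 55 without control B 3. Of all loci, 9.03% were called against control A. This share became 13.6%, 1.1%, 0.293% and 0.116% without control A 1, control A 2, imatinib 2 and imatinib 3. It was 5.85%, 6.08% and 5.96% without control B 3, cisplatin 1 and cisplatin 2. Against control B the share of all loci went from 23.2% to 15.1% without imatinib 2 and 13.1% without control B 3. Over all loci, the share called against both sets also fell from 3.19%. It was 0.16%, 0.0663% and 0.597% without imatinib 2, imatinib 3 and control A 2.

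With cisplatin no member passed against control B (limma, a count of 0 under every alternative), and 0 of the 300 had an unadjusted p under 0.05, where 1.23% of all loci did, 0.464% higher and 0.768% lower. The differences ran from -0.66 to 0.78 with a median of 0.00, and the 95% interval lay within 2-fold in 278 members (92.7%), against 74.5% of all loci. Cisplatin libraries lay above all 6 controls in 7 members and below in 0, where the background is 2.36% in either direction, 1.71% above and 0.652% below. Against control A 99 members passed (33%, background 21.3%), 95 higher and 4 lower (background 16.1% and 5.16%). After median centring 39 were higher and 8 lower, which is 15.7% of the members against 13.5% of all loci. The 99 uncentred calls became 61, 59 and 57 without cisplatin 1, 2 and 3. The share of all loci fell likewise, from 21.3% to 9.81%, 11.5% and 9.45%. Taken against the average of control A and control B, the members with the smallest p in each direction were 2 that were higher and 2 that were lower with cisplatin. XLOC_006974 (scaffold01378, 11818 to 29616, 15 transcripts) had 36.5 ± 1.6 FPKM with cisplatin, against 36.5 ± 1.33 FPKM in control B and 15.9 ± 0.909 FPKM in the other set, and XLOC_005984 (scaffold01249, 5707 to 15964, 7 transcripts) had 28.9 ± 1, 27.1 ± 2.74 and 11.9 ± 0.77 FPKM (SD, n = 3). In the other direction stood XLOC_017497 (scaffold03175, 7267 to 16589), at 63.4 ± 2.41, 72.1 ± 9.76 and 127 ± 1.76 FPKM, and XLOC_000368 (scaffold00127, 60513 to 70175, 2 transcripts), at 7.48 ± 1.65, 10.7 ± 3.15 and 13.5 ± 2.04 FPKM. In XLOC_006974, XLOC_005984 and XLOC_017497 the cisplatin mean lay near that of control B, while in XLOC_000368 it lay below both control means.

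The unexposed sets differed in the long loci as well. In control A 98 members were lower and 5 higher than in control B, with a background of 16.9% and 6.49% (limma, adjusted p under 0.05). After median centring 44 were lower and 12 higher, which is 18.7% of the members against 16.1% of all loci. Without control B 3 the 103 uncentred calls became 61, and the share of all loci fell from 23.4% to 10.3%. The median difference was -0.41 in the members, -0.26 in the matched loci and -0.24 over all loci tested. XLOC_013421 (scaffold02235, 39748 to 51323, span 11575 bp) had 7.54, 24 and 27 FPKM in control A and 103, 82.5 and 127 FPKM in control B (log2 -2.51; limma, adjusted p = 0.00347). XLOC_002707 (scaffold00867, 13334 to 22734) had 0.708, 7.52 and 8.18 FPKM against 27.6, 20.6 and 40.7 (log2 -2.53; limma, adjusted p = 0.016; 0.0637 to 0.0793 under the alternatives that ended the call, leaving out control B 3 among them). XLOC_011965 (scaffold02008, 5091 to 14529), with 108, 55.5 and 72.2 FPKM against 19.8, 13.1 and 16.5 (log2 2.15; limma, adjusted p = 0.0049), and XLOC_000713 (scaffold00279, 39124 to 52846), with 38, 13.8 and 17.3 FPKM against 9.46, 6.2 and 5.93 (log2 1.45; limma, adjusted p = 0.0326), were higher in control A; the call of the latter ended when control A 1, or either of control B 2 and 3, was left out. The etoposide and imatinib means lay nearer to control A than to control B in all 4 of these loci.

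Differences from control B had a median over all loci tested of -0.18 with etoposide, -0.21 with imatinib, -0.24 in control A and 0.01 with cisplatin. Relative to that median, the members lay at -0.393 with etoposide, -0.14 with imatinib, -0.164 in control A and -0.011 with cisplatin. Against control A, where the offsets over all loci were 0.02 with both drugs, they lay at -0.214 with etoposide and -0.018 with imatinib. What sets control A apart from control B was not tested.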

How the data were processed

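The deposited table gives FPKM made by the authors, 1 row for each of 33982 assembled transcripts and 1 column for each of 15 libraries; FPKM carry no read counts, so no counting intervals are given. Per the submitters' processing notes, Cufflinks 2.2.1, Cuffdiff, TopHat2 2.0 and Bowtie2 2.1 were used, with Trim Galore and CASAVA 1.8.0. The sources used here give neither genome build nor settings, and positions are as in the table. Of the identifiers, 0 matched the 28335 genes of the reference table (ASM2063170v1.1), so loci carry no gene names and no gene list was used.

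FPKM were summed per locus and tested as log2(FPKM + 1), a scale that understates changes of low loci, with limma 3.58.1 (R 4.3.3; 5 group means, 1 spread shared by all, mean-variance trend, Benjamini-Hochberg over 18098 loci, threshold 0.05). Medians, matching and shifts were computed with Python 3.11.15 and pandas 2.3.3. Both steps were tested on simulated data. Matched loci differed from their member by at most 0.163 in log2(mean FPKM + 1). Same-numbered cisplatin and control B libraries deviated together (r = 0.244, 0.215 and 0.505 across loci). They were paired only in an alternative fit with a block for replicate number, which left 0 calls there. The main fit, from which the cisplatin values above come, was unpaired. Alternatives covered pseudocount, filter, scaling, weights, fits, transcripts and left-out libraries. Named loci were the 5 longest, the 2 most abundant, those at the limit and, per comparison, at most 2 per direction by size among non-overlapping calls. Members, lists and comparisons were chosen with earlier results of these data known.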

Additional observations from a re-analysis of the deposited data

Results flagged for a closer look

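XLOC_018235 (scaffold03398, 6399 to 14684), the last but one of the 300 longest loci, lay on opposite sides of the controls with different drugs. It measured 2.19, 1.61 and 0.36 FPKM with etoposide, below all 6 control libraries, which ran from 2.25 FPKM in control A to 5.52 FPKM in control B, and 5.81, 6.18 and 5.72 FPKM with cisplatin, above all of them; its log2 difference with etoposide from the mean of the sets was -1.14. The margins were narrow, with 2.19 against 2.25 FPKM in control A, and 5.72 against 5.52 FPKM in control B. Etoposide did not pass against control A (log2 -0.80, limma, adjusted p = 0.0559), and cisplatin did not pass against control B (log2 0.13). Etoposide passed against control B (log2 -1.49) and cisplatin against control A (log2 0.82). Between the control sets, the log2 difference of control A from control B was -0.69. The difference between the drugs was not tested. Of the 300 members, 2 (0.667%) had this pattern of etoposide below and cisplatin above all controls, as did 27 of the 18098 loci tested (0.149%).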

How the results depend on the processing

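In percent of the 300 members called (limma), the counts moved as follows. Against both sets, etoposide went from 19.7% to 0% with library weights and in a fit of the groups compared, and to 8.33% with the most abundant transcript; imatinib went from 2% to 1% among the 100 longest and with the replicate block, 1.33% with median centring, 3.33% with library weights, 0.667% with the most abundant transcript and 0% in a fit of the groups compared. Against control A, etoposide went from 27% to 0% with library weights and in its own fit and to 14.7% with the most abundant transcript, imatinib from 9.67% to 5.67% and, in its own fit, 0%, and cisplatin from 33% to 18% (quantile normalization), 15.7% (median centring), 19.7% (most abundant transcript) and 8.33% (own fit). Against control B, etoposide went from 60% to 39.7% with median centring and 35.7% with the most abundant transcript, and imatinib from 33.3% to 20% (quantile normalization), 15% (median centring), 56.7% (library weights) and 16.3% (most abundant transcript). Control A against control B went from 34.3% to 18.7%, 21% and 11.7% with median centring, the most abundant transcript and its own fit. Over all loci, in the same order of settings, the shares moved too. Against both sets, etoposide went from 6.75% to 0%, 0% and 4.23%. Against control A, etoposide went from 15.5% to 0.00553%, 0.00553% and 10.1%, and cisplatin from 21.3% to 14.6%, 13.5%, 14.4% and 4.25%. Against control B, etoposide went from 28.7% to 23.8% and 22.2%, and imatinib from 23.2% to 19%, 15.8%, 42.7% and 17.4%. Control A against control B went from 23.4% to 16.1%, 16.8% and 6.54%. The cause was not tested, except that fits of fewer groups hold fewer libraries. With any 1 library left out the ranges were 0% to 23.3% and 0% to 4.33% against both sets for etoposide and imatinib, 0.333% to 33%, 0.333% to 17.7% and 19% to 36.3% against control A for etoposide, imatinib and cisplatin, 45% to 67% and 18.3% to 39% against control B for etoposide and imatinib, and 20.3% to 37.7% between the control sets.

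The shift of the members from matched loci kept its sign in every alternative for etoposide. From control B it was -0.383 with a pseudocount of 0.1 and -0.29 with 1 matched locus, against -0.341; imatinib from control B was -0.089 with 1 matched locus, against -0.138; etoposide from imatinib was -0.234 for the 100 longest, against -0.203. Leaving out a library gave -0.267 to -0.128, -0.365 to -0.314 and -0.219 to -0.174 for etoposide against control A, control B and imatinib, -0.07 to 0.064 for imatinib against control A, and -0.205 to -0.075 for control A against control B. Members that contain another locus numbered 0, so that alternative gave no other value. The replicate block, where numbers do not pair libraries outside cisplatin and control B, left 45 and 3 members for etoposide and imatinib against both sets; in no comparison did every library correlate best with its own number.

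Of the named loci, 8 values changed sign: XLOC_016508 with imatinib against control A (0.141, most abundant transcript), and against control B with cisplatin, where nothing was called, XLOC_017497 (0.001, most abundant transcript) and XLOC_006974 (-0.02, -0.016 and -0.009 with quantile normalization, median centring and library weights; -0.023, 0.00 and -0.033 without control B 1, control B 2 and cisplatin 3, in a leave-one-out range of -0.033 to 0.028).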
